A study of Mus musculus with 12 samples.

Results

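The interferon regulatory factors (IRFs) are a family of DNA-binding transcription factors, and the mRNA of 8 members, Irf1, Irf2, Irf3, Irf4, Irf5, Irf7, Irf8 and Irf9, was followed in mouse bone marrow-derived macrophages (BMDMs). The 8 were taken by gene symbol, 1 row each, from the 23847 rows of the expression tables. That rule uses no measured value, but the members, and the gene lists below, were chosen with earlier results of these data known. All 8 were among the 11191 rows that reached 1 FPKM in at least 1 of the 12 samples and were tested. FPKM counts fragments relative to the length of a transcript and to all mapped fragments of its library, so levels of different genes can be compared per length.

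The experiment asks whether earlier exposure to IL-4, a cytokine of type 2 immunity, changes how macrophages respond to LPS, a component of the bacterial outer membrane that Toll-like receptor 4 detects. All cells were wild type (Wt) and were grown from the bone marrow of mice 8 to 12 weeks old, for 6 days in L929 supernatant, a source of the macrophage growth factor MCSF that every group received. The control group was given MCSF alone, the IL-4 group 20 ng/ml IL-4 for 24 h, the LPS group 100 ng/ml LPS for 3 h, and the IL-4+LPS group IL-4 for 24 h followed by LPS for 3 h. The LPS dose is that of the labels, whereas the study's methods give the same figure in nM. Each group held 3 samples. The study describes these samples as individual animals from more than a single experiment, but the labels do not tie replicate numbers to animals or experiments, and the p-values measure only the spread between these samples. This is a culture model of macrophages at a single LPS time, and mRNA says nothing of whether a factor was phosphorylated or in the nucleus.

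IRFs share a DNA-binding domain that reads GAAA repeats, and several of them need a signal or a partner before they act. IRF3 and IRF7 are held in the cytoplasm until kinases downstream of pattern receptors phosphorylate them, after which they switch on type I interferon genes. IRF9 belongs to the complex that answers interferon, IRF1 activates and IRF2 often represses interferon-responsive promoters, IRF5 serves Toll-like receptor signalling, and IRF4 and IRF8 bind composite sites with the macrophage factor PU.1. In macrophages IRF8 is needed for the lineage and for inflammatory programs, whereas IRF4 is known for its part in the response to IL-4.

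Sequencing depth differed between samples, and relative depth read from the steps of the low values ran from 0.99 to 3.3 with control replicate 1 set to 1. Absolute depth is unknown. FPKM values summed to between 457583 and 495025 per sample, and Pearson's r between samples of a group lay between 0.954 and 0.983. All 7 macrophage markers reached 1 FPKM in each group, and they summed to 19200 to 20600 FPKM in control samples, 7570 to 7790 with IL-4, 15500 to 16700 with LPS and 6570 to 6950 with the combination. The sum was thus lower in both groups that received IL-4. Most of it was Lyz2, at 15300 to 16500 FPKM in control samples and 4730 to 5050 with IL-4. Lyz2, Emr1, Fcgr1, Csf1r, Itgam and Mertk fell with IL-4 alone, whereas Cd68 was not called. Within LPS-treated cells Lyz2, Emr1, Fcgr1, Csf1r and Itgam were lower with IL-4, Cd68 was not called and Mertk was higher. The part of these marker changes in the IL-4 effects below was not tested. Neutrophil markers summed to 25.5 to 58.5 FPKM in control samples, 10.6 to 32.2 with IL-4, 30.7 to 72.7 with LPS and 23.2 to 53 with the combination, and 4 of 5 reached 1 FPKM. Markers of T and NK cells summed to at most 0.447 FPKM and those of fibroblasts to at most 0.23 FPKM.

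The make-up of the IRF mRNA pool differed between the 4 conditions. In control cells Irf5 was the most abundant member, with 39.3% ± 3.93 of the summed FPKM of the 8 genes (SD, n = 3), and Irf8 followed with 21.3% ± 0.866. In IL-4 cells Irf5 again led, with 41.5% ± 1.78, while Irf4 held 5.8% ± 0.251 against 0.367% ± 0.0677 in control cells. In LPS cells Irf1 held 53.3% ± 2.79 and Irf7 19.6% ± 1.94. In IL-4+LPS cells Irf1 held 61.6% ± 3.1 and Irf8 13.5% ± 3.29, against 3.61% ± 0.138 for Irf8 in LPS cells. The summed level of the 8 genes was 373 ± 26.5 FPKM in control samples, 343 ± 7.53 with IL-4, 887 ± 65.2 with LPS and 1333 ± 33.1 with the combination (SD, n = 3 each). These are shares of a relative measure over bulk RNA, in which fewer cells of a type and less RNA per cell cannot be told apart.

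**Figure D1:**
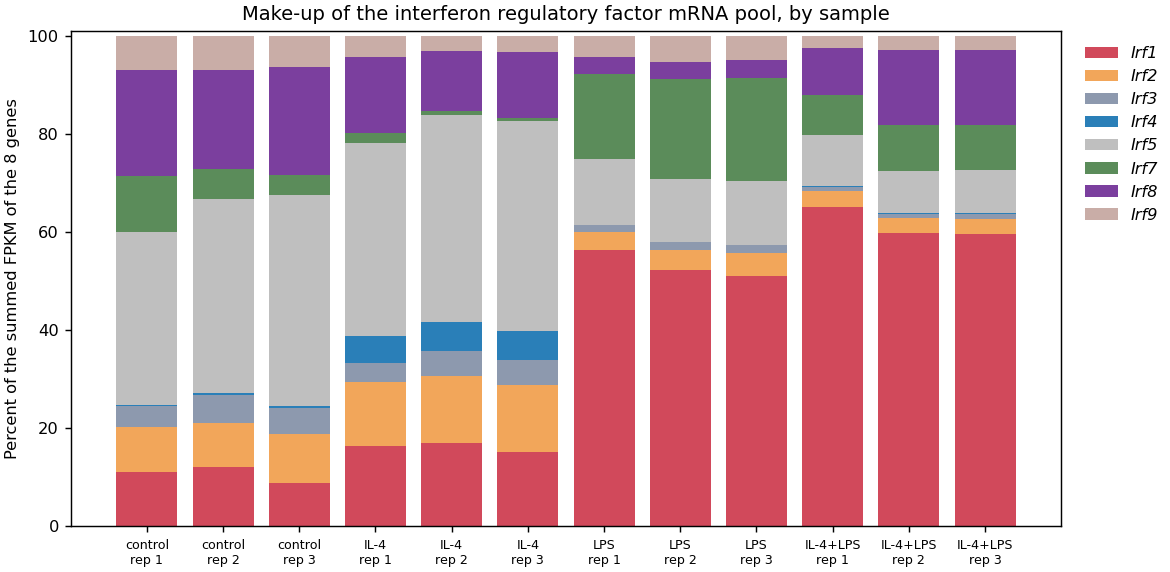
Stacked bars give, for each of the 12 samples, the percent that each of the 8 genes took of their summed FPKM. Irf5 is the widest band in the 6 samples without LPS and Irf1 in the 6 samples with LPS, and the band of Irf4 is widest in the 3 IL-4 samples, where it held 5.8% on average.

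Irf1, Irf2 and Irf8 are the members whose proximal promoters held letters of a binding motif searched for, and those windows are shown for that reason. The windows are the 250 bases before the annotated start in RefSeq promoters of GRCm38.p6, on the strand of the gene, 5′ to 3′, and capitals mark the matches. They lie at chr11:53769764-53770013 (+) for Irf1, chr8:46739495-46739744 (+) for Irf2 and chr8:120736108-120736357 (+) for Irf8, whose RefSeq start lies 18 bases before that of the deposited table.
Irf1: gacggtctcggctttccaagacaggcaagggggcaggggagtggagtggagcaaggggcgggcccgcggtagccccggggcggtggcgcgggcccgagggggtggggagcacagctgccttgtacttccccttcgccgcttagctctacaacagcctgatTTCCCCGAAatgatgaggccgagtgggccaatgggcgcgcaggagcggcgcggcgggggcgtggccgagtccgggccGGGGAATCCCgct
Irf2: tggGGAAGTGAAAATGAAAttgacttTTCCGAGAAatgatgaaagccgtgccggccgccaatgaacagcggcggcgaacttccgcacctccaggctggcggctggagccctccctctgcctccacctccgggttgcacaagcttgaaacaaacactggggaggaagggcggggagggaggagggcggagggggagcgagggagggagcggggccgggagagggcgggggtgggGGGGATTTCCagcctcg
Irf8: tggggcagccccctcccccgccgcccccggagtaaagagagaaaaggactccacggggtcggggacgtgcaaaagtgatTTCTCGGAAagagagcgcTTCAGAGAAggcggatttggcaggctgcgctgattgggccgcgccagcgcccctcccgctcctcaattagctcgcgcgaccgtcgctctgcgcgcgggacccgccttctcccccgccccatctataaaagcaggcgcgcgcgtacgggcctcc
Both strands were searched for the STAT site GAS (TTCNNNGAA), the STAT6 spacing of it (TTCNNNNGAA), the interferon element ISRE (GAAANNGAAA), the composite ETS and IRF element EICE (GGAANNGAAA) and the NF-kB consensus. In Irf1 a GAS match lay at bases -90 to -82 from the start and an NF-kB match at -13 to -4. In Irf8 a pair of GAS matches lay at -171 to -163 and -153 to -145. In Irf2 the run of capitals at the 5′ end holds an EICE match at -247 to -238 and an ISRE match at -241 to -232 that overlap, followed by a GAS match at -224 to -216 and an NF-kB match at -17 to -8. The windows of Irf3, Irf4, Irf5, Irf7 and Irf9 held none of these letters. Irf1, Irf8 and Irf9 each have 2 listed promoters, and only the window nearest the start in the deposited table was searched. Among the 32817 promoter windows of the same length, 7.01% held the GAS letters, 5.85% the STAT6 letters, 2.97% the ISRE letters, 2.3% the EICE letters and 7.25% the NF-kB consensus. A match describes letters only and is not a bound site.

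Members of the family differed in their response to LPS alone. Irf1, Irf7 and Irf9 rose and Irf3, Irf4, Irf5 and Irf8 fell, whereas Irf2 was not called. Thus 3 of 8 members were higher, where 16.9% of all tested rows were. The 4 of 8 that were lower were no larger a share than the 57.7% of all rows. The tests are limma fits on log2(FPKM + 1) with Benjamini-Hochberg adjustment over all 11191 rows and a threshold of 0.05, and every log2 difference below is on that scale, which understates changes of low genes. The median difference over all rows was -0.44 for LPS minus control, and dividing each sample by its median moved it to -0.14, so small falls after LPS have to be read against that shift. The median over the 8 members was -0.14. The falls of Irf3 (-0.42) and Irf5 (-0.33) were no larger than the all-row median, and neither was called with median scaling. Those of Irf4 (-1.06) and Irf8 (-1.29) were larger.

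Irf1, an activator of interferon-γ and inflammatory target genes, had the largest rise with LPS alone, whereas after IL-4 Irf7 rose more. It stood at 43.8, 45.3 and 30.0 FPKM in control replicates 1 to 3, 56.9, 58.4 and 50.5 in IL-4 samples, 541, 456 and 425 with LPS alone, and 890.2, 799 and 776 with IL-4+LPS. The groups stood in the order control, IL-4 alone, LPS alone and IL-4+LPS, and no neighbours in that order overlapped. The mean was 11.9 times that of control after LPS alone, a log2 difference of 3.56 (SE 0.149, adjusted p = 1.55e-08), and 14.9 times that of IL-4 cells after IL-4 and LPS, a difference of 3.87 (SE 0.149, adjusted p = 1e-08). IL-4 by itself raised Irf1 from 39.7 ± 8.42 to 55.3 ± 4.19 FPKM (SD, n = 3 each; log2 difference 0.49, adjusted p = 0.0262), but that call was lost without control replicate 3 (adjusted p = 0.071), without IL-4 replicate 1 (0.065) or without IL-4 replicate 2 (0.0834). Within LPS-treated cells Irf1 was 1.73 times as high after IL-4, 822 ± 60.4 against 474 ± 60.2 FPKM (adjusted p = 0.00235). The LPS responses with and without IL-4 differed by 0.31, with a 95% interval from -0.16 to 0.78 (adjusted p = 0.426).

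Irf2, which competes with Irf1 for the same sites, moved within a narrow range. Its values were 36.4, 33.9 and 34.4 FPKM in control, 45.4, 47.9 and 45.6 in IL-4 samples, 34.9, 34.9 and 38.6 with LPS alone, and 43.5, 38.6 and 39.5 with IL-4+LPS. The 3 IL-4 samples were the highest and overlapped no other group, whereas control overlapped LPS and LPS overlapped IL-4+LPS. Irf2 rose with IL-4 to 1.32 times control (log2 difference 0.40, adjusted p = 0.00116). It fell from IL-4 to IL-4+LPS by 0.19 on the log2 scale (adjusted p = 0.0264). That difference turned to 0.17 with median scaling, and with quantile normalization it was -0.16 and not called (adjusted p = 0.106). It was also not called without IL-4 replicate 2 (adjusted p = 0.0849) or without IL-4+LPS replicate 2 (0.0913) or 3 (0.0777). The LPS difference without IL-4 was 0.05 (adjusted p = 0.539), and with median scaling it was 0.41 (adjusted p = 0.000414). The FPKM ratio of Irf1 to Irf2 lay between 0.872 and 1.34 in control samples, 1.11 and 1.25 with IL-4, 11 and 15.5 with LPS, and 19.6 and 20.7 with the combination.

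**Figure D2:**
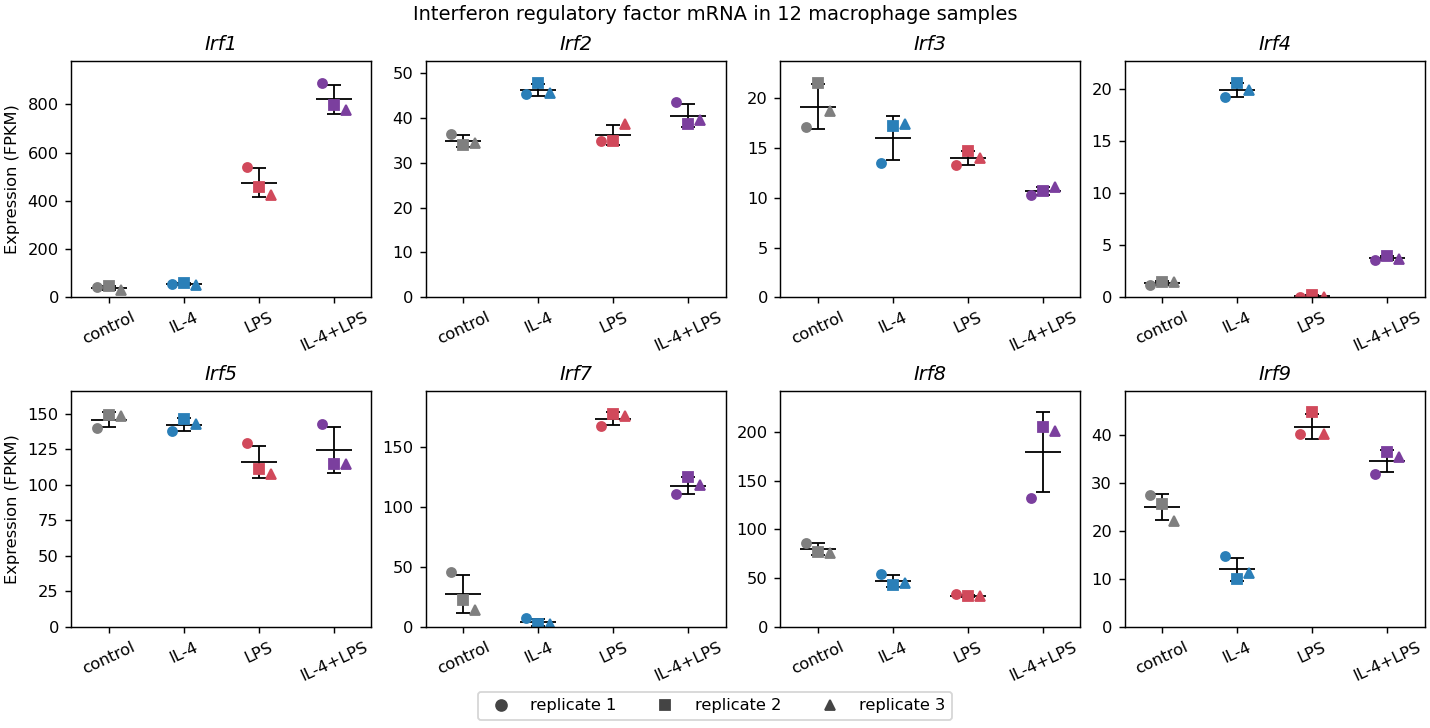
Each panel gives the FPKM of 1 gene on a linear axis from 0, with coloured symbols for the 3 samples of each group, a horizontal line for the mean and bars of 1 SD. Irf4 stands highest in the IL-4 samples (19.2 to 20.6 FPKM), Irf8 in the IL-4+LPS samples (132 to 205), and Irf7 and Irf9 are lowest in IL-4 and highest in LPS.

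Irf3, the constitutive factor that pattern-receptor kinases activate, was not called higher in any contrast. It measured 17.1, 21.6 and 18.8 FPKM in control, 13.5, 17.2 and 17.4 in IL-4 samples, 13.3, 14.7 and 14.0 with LPS alone, and 10.3, 10.6 and 11.1 with IL-4+LPS. The IL-4+LPS samples were the lowest and overlapped no other group, while IL-4 overlapped both control and LPS. Irf3 fell with LPS by 0.42 (adjusted p = 0.00431) and after IL-4 by 0.54 (adjusted p = 0.00101), close to the median of all rows, -0.44 and -0.41. With median scaling neither was called, at -0.07 (adjusted p = 0.555) and -0.20 (adjusted p = 0.118). Quantile normalization also left both not called, at -0.19 (adjusted p = 0.141) and -0.25 (adjusted p = 0.0639). In LPS-treated cells Irf3 was lower with IL-4 by 0.36 (adjusted p = 0.0263). That call was lost when LPS replicate 2 or 3, or any of the 3 IL-4+LPS replicates, was left out, with adjusted p from 0.0501 to 0.0824.

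Irf7, the interferon-inducible amplifier of type I interferon production, showed the widest swing of the interferon loop. Its values were 45.4, 22.5 and 14.2 FPKM in control, 7.08, 2.47 and 2.08 in IL-4 samples, 167, 177 and 175 with LPS alone, and 110.3, 124 and 118 with IL-4+LPS. No neighbours in the order IL-4, control, IL-4+LPS and LPS overlapped, although the control samples themselves spread from 14.2 to 45.4 FPKM. IL-4 lowered Irf7 to 0.142 of control (log2 difference -2.53, SE 0.402, adjusted p = 0.000762). LPS raised it 6.32-fold from control (2.77, SE 0.402, adjusted p = 9.85e-05) and 30.3-fold from the lower level of IL-4 cells (4.74, SE 0.402, adjusted p = 2.38e-06). With LPS the means stood 1.47-fold apart, against 7.06-fold without it, at 173 ± 5.5 FPKM with LPS and 118 ± 7.11 with the combination (SD, n = 3 each). These 2 groups did not overlap, but the difference of -0.56 was not called (95% interval -1.45 to 0.34, adjusted p = 0.336). Its SE of 0.402 pools all 4 groups, including the wider log2 spread of the control and IL-4 samples. In replicates 2 and 3 only this difference was called (-0.535, adjusted p = 0.0495). The difference between the LPS responses, 1.98 (95% interval 0.71 to 3.23, adjusted p = 0.0566), was not called either. That difference was called without control replicate 3 (adjusted p = 0.0287), without IL-4 replicate 1 (adjusted p = 0.014) and in replicates 2 and 3 only (adjusted p = 0.00242). Without IL-4 replicate 1 the IL-4 mean was 0.0831 of control and the rise after IL-4 51.7-fold.

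Irf9, the DNA-binding subunit of the interferon-activated complex, followed the same order of groups with smaller steps. It stood at 27.4, 25.6 and 22.0 FPKM in control, 14.7, 10.1 and 11.2 in IL-4 samples, 40.2, 44.7 and 40.2 with LPS alone, and 31.9, 36.4 and 35.4 with IL-4+LPS. The 4 groups did not overlap. Irf9 fell with IL-4 to 0.481 of control (log2 difference -1.01, adjusted p = 0.000173), rose with LPS 1.67-fold (0.72, adjusted p = 0.000402) and rose 2.88-fold from IL-4 to IL-4+LPS (1.46, adjusted p = 2.81e-06). The difference between these LPS responses was 0.74 (SE 0.18, adjusted p = 0.0282). It was lost in 7 of the 12 fits that left out a sample, with adjusted p up to 0.0766. Within LPS-treated cells the Irf9 difference with IL-4 was -0.26 and was not called (adjusted p = 0.146).

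Irf5, a mediator of inflammatory cytokine induction downstream of MYD88, moved little. Its values were 140.1, 149 and 149 FPKM in control, 138, 147 and 143 in IL-4 samples, 129, 112 and 108 with LPS alone, and 143, 115 and 115 with IL-4+LPS. Neighbouring groups in the order of their means overlapped throughout. LPS alone lowered Irf5 to 0.796 of control (-0.33, adjusted p = 0.00908), a difference that turned to 0.04 with median scaling. None of the other contrasts was called for Irf5. The difference from IL-4 to IL-4+LPS, -0.20 (adjusted p = 0.0773), was called without IL-4+LPS replicate 1 (-0.31, adjusted p = 0.00656), in replicates 2 and 3 only (-0.33, adjusted p = 0.000141) and with quantile normalization (-0.30, adjusted p = 0.0398), and turned to 0.16 with median scaling. Its IL-4 difference of -0.03 had a 95% interval from -0.25 to 0.18.

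Irf4, the member known for the IL-4 response, rose with IL-4 and fell with LPS. It measured 1.15, 1.5 and 1.42 FPKM in control, 19.2, 20.6 and 19.9 in IL-4 samples, 0.0719, 0.249 and 0.0649 with LPS alone, and 3.61, 3.99 and 3.66 with IL-4+LPS. No group overlapped another, and samples of a group lay close together except in LPS. The LPS values correspond to 4, 35 and 5 fragments of Irf4, the smallest whole multiples that match the steps of its values within 0.1 fragment, against about 1029, 1975 and 1867 in the IL-4 samples. IL-4 raised Irf4 14.7-fold over control (log2 difference 3.15, SE 0.089, adjusted p = 5.26e-09), and in LPS-treated cells IL-4+LPS exceeded LPS 29.2-fold (2.08, SE 0.089, adjusted p = 1.08e-07).

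LPS lowered Irf4 in either setting, 10.6-fold from control (-1.06, SE 0.089, adjusted p = 1.78e-06) and 5.3-fold from IL-4 cells (-2.14, SE 0.089, adjusted p = 1.7e-08). LPS replicate 2 held the highest of the LPS values, and without it the fall from control was 19.9-fold and the excess of IL-4+LPS over LPS 54.9-fold. The difference between the falls depended on the scale. It was -1.07 on log2(FPKM + 1) (SE 0.126, adjusted p = 7e-04), and 0.38 with a pseudocount of 0.1 (adjusted p = 0.601), so its sign is not determined by these values. IL-4+LPS cells held 3.75 ± 0.203 FPKM of Irf4 (SD, n = 3), above the 1.36 ± 0.184 of control.

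Irf8, the lineage factor of macrophages and dendritic cells, responded to LPS in opposite directions depending on IL-4. Its values were 86.4, 76.6 and 75.7 FPKM in control, 54.3, 43.1 and 44.9 in IL-4 samples, 33.4, 31.3 and 31.2 with LPS alone, and 132, 205 and 200.4 with IL-4+LPS. Each agent alone lowered every sample below every control sample, and the combination put every sample above all others. Irf8 fell with LPS to 0.402 of control (-1.29, SE 0.154, adjusted p = 2.35e-05) and with IL-4 to 0.596 of control (-0.74, SE 0.154, adjusted p = 0.00378). From IL-4 to IL-4+LPS it rose 3.78-fold (1.88, SE 0.154, adjusted p = 1.82e-06), and within LPS-treated cells it was 5.61-fold higher with IL-4 (2.42, SE 0.154, adjusted p = 1.57e-06). The difference between the LPS responses was 3.17 (SE 0.217, 95% interval 2.68 to 3.65, adjusted p = 2.62e-05), and it stayed between 3.05 and 3.37 in the 12 fits that left out a sample.

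Markers of other cell types that express Irf8 were measured beside it. The 6 conventional dendritic cell markers summed to 0.745 to 1.34 FPKM in control samples, 0.538 to 1.17 with IL-4, 1.28 to 2.38 with LPS and 2.4 to 3.54 with the combination, and 2 of 6 reached 1 FPKM. Among them Zbtb46 stood at 1.94 to 2.83 FPKM with the combination and at 0.487 to 0.562 with LPS (log2 difference 1.16, adjusted p = 5.47e-05). The LPS response of Zbtb46 was larger after IL-4, by 0.83 (adjusted p = 0.0147). Ccr7, the other that reached 1 FPKM, stood lower with the combination, at 0.0947 to 0.593 against 0.409 to 1.39 with LPS, and was not called (-0.46, adjusted p = 0.166). Xcr1 was also lower, at 0.079 to 0.0927 against 0.114 to 0.205. Flt3 did not exceed 0.171, and Dpp4 was at 0 in all IL-4+LPS samples. The 5 plasmacytoid dendritic cell markers summed to 2.48 to 4.08 FPKM with the combination and 1.28 to 1.96 with LPS, against 1.34 to 2.76 in control samples and 0.944 to 2.57 with IL-4. Only Cox6a2 of these reached 1 FPKM, and it was higher with the combination than with LPS (log2 difference 1.05, adjusted p = 0.0101). The 5 B cell markers summed to 2.11 to 4.36 FPKM with the combination and 0.753 to 1.04 with LPS, most of it Cd79b (log2 difference 1.295, adjusted p = 0.000946). The same sum was 2.08 to 3.28 in control samples, which overlapped the combination, and 0.904 to 1.15 with IL-4. The part of these cells in the Irf8 and Irf4 values was not tested.

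The balance of the PU.1-partnering pair shifted accordingly. The FPKM ratio of Irf8 to Irf4 lay between 51 and 75.1 in control samples, 2.09 and 2.82 with IL-4, 125 and 482 with LPS, and 36.7 and 54.7 with the combination. It was thus lowest in IL-4 and highest in LPS, without overlap between those and any other group, whereas control and IL-4+LPS overlapped. The LPS ratios rest on the few Irf4 fragments given above.

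**Figure D3:**
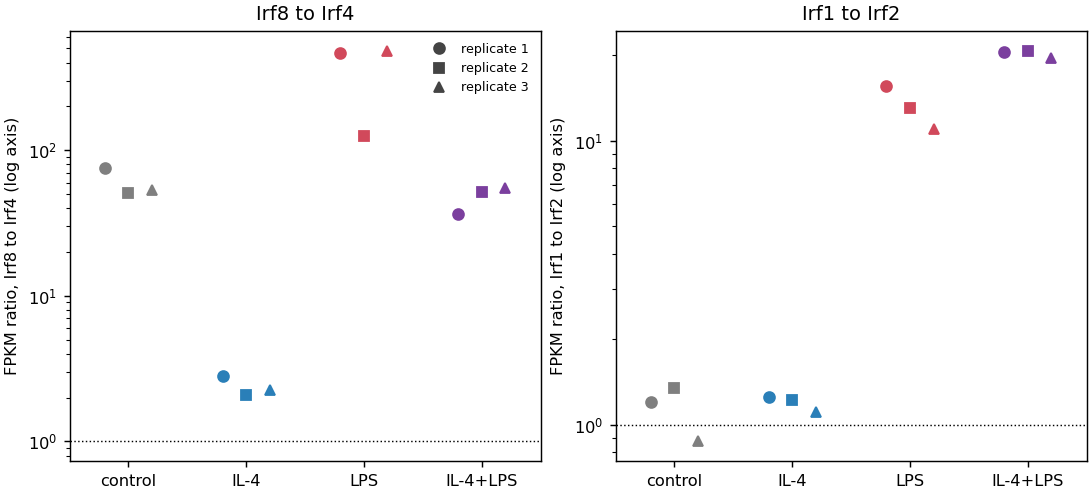
FPKM ratios on log axes, with 1 symbol per sample: Irf8 to Irf4 on the left and Irf1 to Irf2 on the right, and a dotted line at a ratio of 1. Irf8 to Irf4 is lowest in IL-4 (2.09 to 2.82) and highest in LPS (125 to 482), and Irf1 to Irf2 lies near 1 without LPS and between 11 and 20.7 with it.

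Across the family IL-4 alone raised Irf1, Irf2 and Irf4 and lowered Irf7, Irf8 and Irf9, that is 3 of 8 in each direction, where 16.0% of all rows were higher and 21.0% lower. Irf3 (-0.25, adjusted p = 0.0983) and Irf5 were not called. The interferon-loop members Irf7 and Irf9 thus fell in the cells that gained Irf4.

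After IL-4, LPS raised 4 of 8 members, Irf1, Irf7, Irf8 and Irf9, where 15.0% of all rows were higher, and lowered 3 of 8, Irf2, Irf3 and Irf4, where 57.9% were lower. Irf5 was not called (-0.20, adjusted p = 0.0773). Within LPS-treated cells, earlier IL-4 left 3 of 8 members higher, Irf1, Irf4 and Irf8, where 15.0% of rows were higher, and 1 lower, Irf3, where 15.8% were. Both contrasts use the IL-4+LPS samples, and each LPS contrast shares its samples with an IL-4 contrast, so the counts are not independent. The difference between the LPS responses was positive in 2 members, Irf8 and Irf9, where 4.58% of rows were called positive, and negative in 1, Irf4, where 4.63% were called negative.

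**Figure D4:**
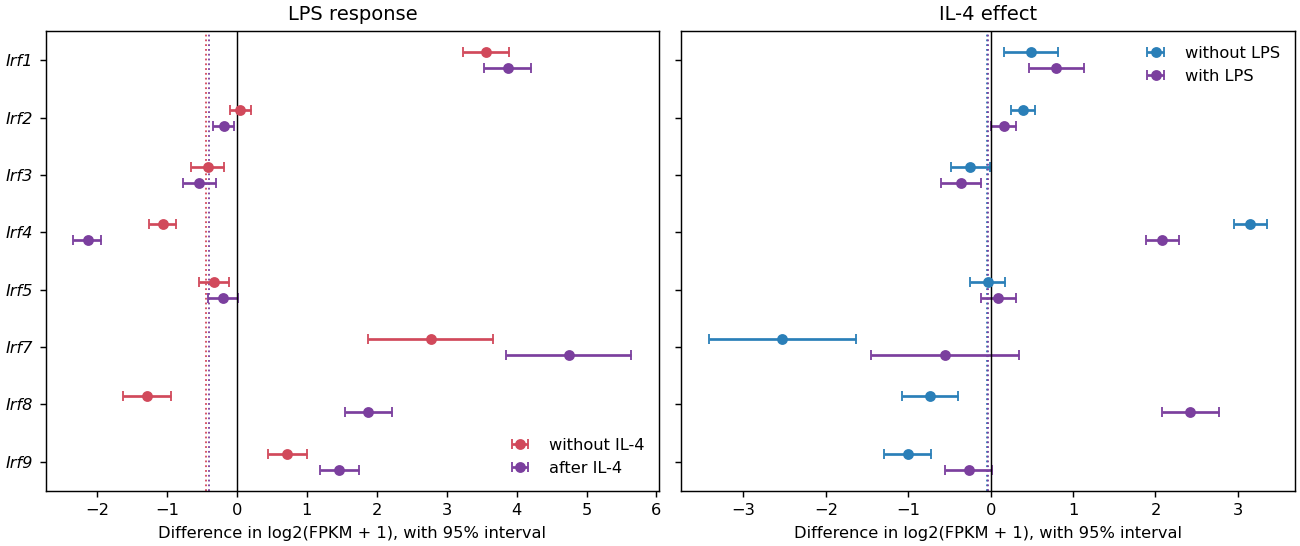
Differences in log2(FPKM + 1) with 95% intervals for the 8 genes, on the left for LPS without and after IL-4 and on the right for IL-4 without and with LPS; dotted lines mark the median of all rows. Irf8 is the gene whose LPS response changed sign with both intervals clear of 0 (-1.29 without and 1.88 after IL-4).

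Pathway genes around the factors were read from 4 lists. Of 20 sensors and activators, which feed IRF3, IRF5 and IRF7, 10 rose and 7 fell with LPS, where 16.9% of all rows rose and 57.7% fell. The RNA sensor Ifih1 rose most, from 6.16 ± 1.69 to 129 ± 8.57 FPKM (SD, n = 3 each; log2 difference 4.21, adjusted p = 2.09e-08), and its adaptor Mavs fell most, from 23 ± 1.27 to 6.03 ± 0.645 FPKM (-1.77, adjusted p = 3.68e-07). IL-4 alone raised 1, the TRIF adaptor Ticam1 (0.42, adjusted p = 0.00509), and lowered 6, most of all the DNA receptor Tlr9 (-2.21, adjusted p = 0.00322), where 16.0% of all rows rose and 21.0% fell. Within LPS-treated cells 1 was higher with IL-4, Tmem173, which encodes STING (0.64, adjusted p = 0.0176), where 15.0% of all rows were higher. In the same contrast 4 were lower, near the 15.8% of all rows. The largest of these falls was that of Ikbke, an IRF3 and IRF7 kinase, at 49 ± 6.64 against 108 ± 12.3 FPKM (-1.12, adjusted p = 8.19e-05).

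Of 17 genes of interferon and IL-4 signalling, 15 were tested, and 12 rose and 2 fell with LPS, against 16.9% and 57.7% of all rows. The receptor kinase Jak2 rose most with LPS (4.04, adjusted p = 4.16e-09) and was also the 1 gene that rose with IL-4 (1.21, adjusted p = 7.72e-05), where 6 fell, led by the receptor chain Il13ra1 (-1.19, adjusted p = 3.83e-06), against 16.0% and 21.0% of all rows. Stat6, the transcription factor of the IL-4 receptor, fell with LPS (-0.88, adjusted p = 2.66e-06) and was the 1 gene higher with IL-4 in LPS-treated cells (0.50, adjusted p = 0.00076). In that contrast 6 were lower, where 15.0% of all rows were higher and 15.8% lower, with the IL-4 receptor gene Il4ra at 99, 234 and 207 FPKM with LPS and 19, 40.3 and 37.9 with the combination (-2.42, adjusted p = 0.000265). These samples did not overlap, and replicate 1 was the lowest in both groups.

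Of 14 partners and regulators, 13 were tested, and 8 rose and 4 fell with LPS, where 16.9% and 57.7% of all rows did. Usp18, which removes ISG15 and damps interferon receptor signalling, rose most (5.17, adjusted p = 3.91e-08). The IRF2 corepressor gene Irf2bp2 fell most, from 32.1 ± 1.25 to 1.25 ± 0.969 FPKM (-3.96, adjusted p = 7.13e-07). With IL-4 alone 3 rose, most of all Socs1, an inhibitor of Janus kinases (4.17, adjusted p = 2.55e-06), and 2 fell, led by the ubiquitin ligase Trim21 (-0.60, adjusted p = 0.000558), near the all-row shares of 16.0% and 21.0%. Within LPS-treated cells 3 were higher with IL-4 and 3 lower, not far from the 15.0% and 15.8% of all rows. The largest rise was that of Batf3, an AP-1 family partner of IRF4 and IRF8, at 24.4 ± 1.95 against 2.31 ± 0.911 FPKM (2.98, adjusted p = 2.96e-06), and the largest fall that of Irf2bpl (-0.58, adjusted p = 0.0149). Without LPS, Batf3 stood at 7.71 ± 1.3 FPKM in control and 66.4 ± 11.6 with IL-4. LPS lowered Batf3 by similar amounts without IL-4 (-1.43) and after it (-1.4), and the difference was not called (0.03, adjusted p = 0.97).

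All 24 listed interferon-stimulated genes were tested and all 24 rose with LPS without IL-4, where 16.9% of all rows rose. All 24 also rose with LPS after IL-4, where 15.0% of all rows rose. The median log2 differences were 3.77 and 4.67, beside -0.44 and -0.41 over all rows. The chemokine gene Cxcl10 rose most, from 3.74 ± 1.19 to 2594 ± 160 FPKM (9.13, adjusted p = 9.63e-09). IL-4 alone lowered 15 of the 24, where 21.0% of all rows fell, most of all the RNA-sensing synthetase Oas2 (-2.67, adjusted p = 2.99e-05). It raised 1, the immunoproteasome subunit Psmb8 (0.36, adjusted p = 0.00463), where 16.0% of all rows rose. Within LPS-treated cells IL-4 left 19 of the 24 not called, 2 higher and 3 lower, where 15.0% and 15.8% of all rows were. The largest fall was that of Cxcl10, to 1143 ± 109 FPKM (-1.18, adjusted p = 0.0271), and the largest rise that of Psmb9 (0.31, adjusted p = 0.0472). The difference between the LPS responses was positive in 5 and negative in 0 of the 24, where 4.58% and 4.63% of all rows were called.

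Among all other tested rows, the genes whose log2(FPKM + 1) followed a member most closely over the 12 samples were picked by Pearson's r. For Irf1 they were the interferon-induced GTPase gene Gbp2 (r = 0.994), Csf1 (0.994) and the chemokine gene Ccl12 (0.992), and for Irf7 Oas3 (0.998), Rtp4 (0.997) and Marf1 (0.995). Irf9 was closest to Ifitm3 (0.989), Cxcl16 (0.988) and Marf1 (0.986). Irf4 was closest to the cyclooxygenase gene Ptgs1 (0.994), Mcf2l (0.991) and Pex26 (0.989). Irf8 was closest to Hsd17b11 (0.974), Arl5b (0.933) and Tal1 (0.932). For Irf2 they were Dnajc25 (0.954), Gars (0.945) and Kcnd3 (0.943), for Irf3 Smagp (0.976), Tmem106c (0.976) and Adpgk (0.973), and for Irf5 Chpf2 (0.97), Cyb5 (0.959) and Mllt10 (0.955). These coefficients describe 12 points that fall into 4 groups and share libraries, so they carry no test. The picks also depend on the coefficient: by Spearman's rho only Csf1 for Irf1, Hsd17b11 for Irf8 and Ifitm3 for Irf9 were picked again.

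Sequence shared with other genes was small for the 8 members. In GENCODE vM21 Irf1 at chr11:53770014-53778374 (+) shared 3.4% of its exon bases with Gm17334 on the opposite strand, and Irf3 at chr7:44997648-45002848 (+) shared 2.56% with Bcl2l12. Neither Irf4 at chr13:30749258-30766927 (+) nor Irf8 at chr8:120736376-120756692 (+) overlapped exons of another gene, nor did the other 4 members. Strand was not stated for the library, so reads of overlapping bases cannot be assigned.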

How the data were processed

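RNA-seq was analysed for 12 BMDM samples in 4 groups of 3, grouped by the treatment in the labels. The deposited tables held FPKM values per gene, 1 table per sample, which the authors made from poly-A selected TruSeq libraries sequenced as paired reads. Per the submitters' processing notes they used TopHat2 2.0.7, Cufflinks 2.0.2 and mm10, and the gene annotation is not given in the sources used here. FPKM is relative to the mapped fragments of each sample, so a shift in RNA composition moves every gene.

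Rows of at least 1 FPKM in at least 1 sample were transformed to log2(FPKM + 1) and fitted by group means with limma 3.58.1 in R 4.3.3 (eBayes with trend). P-values are two-sided and adjusted by Benjamini-Hochberg within each contrast. LPS and IL-4 were each set against control, IL-4+LPS against IL-4 and against LPS, and the LPS response after IL-4 against that without it. The fit was tested on simulated data. The alternatives were a pseudocount of 0.1, no filter, a filter of 1 FPKM in 3 samples, quantile normalization, median scaling, the replicate number as a block, replicates 2 and 3 only, a 2-fold minimum, Spearman's rho for alike genes, and each sample left out in turn.

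Named genes were the 8 members, the 3 rows most alike to each, and the largest called rise and fall of each pathway list for LPS against control, IL-4 against control and IL-4+LPS against LPS. The cell type markers not named by that rule, and the 3 values of Il4ra, are given as context. Members and lists were chosen with earlier results of these data known. Spi1 and Adgre1 were found under older symbols, and Ly6g was not used here. Python 3.11.15 with matplotlib 3.10.9 drew the plots.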

Additional observations from a re-analysis of the deposited data

Results flagged for a closer look

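In 3 members the LPS response differed between cells with and without earlier IL-4 by a test of that difference itself (limma, adjusted p under 0.05, 3 samples per group). Irf8 had the largest difference of the 8, 3.165 on the log2(FPKM + 1) scale (SE 0.217, adjusted p = 2.62e-05): its response was -1.29 in cells without IL-4 and 1.88 after IL-4. Irf9 differed by 0.744 (SE 0.18, adjusted p = 0.0282), with a rise in both settings, and this call was lost in 7 of the 12 fits without a sample. Irf4 differed by -1.073 (SE 0.126, adjusted p = 7e-04), with a fall in both settings, and the sign of this difference turned with a smaller pseudocount.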

How the results depend on the processing

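Median scaling reduced the members lower in LPS than control from 4 to 2 and those lower in IL-4+LPS than IL-4 from 3 to 1, and turned the differences of Irf5 (LPS minus control, 0.037) and of Irf2 (0.167) and Irf5 (0.158) in IL-4+LPS minus IL-4. Quantile normalization lost the call of Irf3 in LPS minus control. In IL-4+LPS minus IL-4 it lost those of Irf2 and Irf3 and added Irf5. A 2-fold minimum left 2 members lower in LPS, 1 higher in IL-4, 1 lower in IL-4+LPS than IL-4, 0 lower in IL-4+LPS than LPS and 1 with a positive difference between LPS responses. Without a filter, where more rows were tested, 0 members were lower in IL-4+LPS than LPS and 1 had a positive difference between LPS responses. A pseudocount of 0.1 turned that difference for Irf4 to 0.379 and left 0 negative. With replicates 2 and 3 only, 2 members were lower in IL-4+LPS than LPS and 2 had a negative difference.

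Over the fits that left out a sample, the members lower in IL-4+LPS than LPS numbered 0 to 1 and those with a positive difference between LPS responses 1 to 3, the LPS difference of Irf2 ran from 0 to 0.077 and the IL-4+LPS minus LPS difference of Irf5 from -0.011 to 0.172. Among 18 pairs of samples that share only a replicate number, deviations from the group means correlated with a mean r of 0.124, over 0.1 in 11. The replicate block lost no call and added Irf3 in IL-4 minus control (-0.246, adjusted p = 0.022) and the difference between LPS responses of Irf7 (1.975, adjusted p = 0.0229). By Spearman's rho, 3 of the 24 most alike genes were shared. The causes were not tested. Irf4 in LPS rests on few fragments, 4, 35 and 5 in replicates 1 to 3, at relative depths of 1.03, 2.61 and 1.43.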

Other observations

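The genes given here were singled out after their values were seen. The phagocytic receptor gene Mertk, a macrophage marker, stood at 38.3, 31.5 and 25.9 FPKM in control, 11.7, 11.7 and 10.5 in IL-4 samples, 11.3, 9.24 and 9.19 with LPS alone, and 13.5, 21.9 and 18.8 with IL-4+LPS. Its LPS response was -1.58 without IL-4 and 0.61 after it (limma, difference 2.19, adjusted p = 0.000569), but unlike Irf8 its IL-4+LPS samples stayed below every control sample. The B cell receptor component gene Cd79b had LPS responses of -0.99 and 1.24 (difference 2.23, adjusted p = 0.00122) at 0.486 to 4.28 FPKM. The interferon gene Ifnb1 measured 3.13, 2.14 and 2.05 FPKM with LPS and 2.07, 10.6 and 10.6 with the combination, groups that overlapped through IL-4+LPS replicate 1 (log2 difference 1.13, adjusted p = 0.0616).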
